A study of Mus musculus with 21 samples.

Results

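Collagen genes were described across 7 groups of sorted mouse brain cells. Every gene symbol made of Col, a number, a and a second number was taken, which gave 44 of the 24322 symbols in the deposited tables. Of these, 31 were kept because they reached at least 1 FPKM (a level scaled for transcript length and for the fragments mapped in each library) in at least 3 of the 21 libraries. The kept genes were all 11 fibrillar collagens, 5 of 6 type IV (basement membrane network) genes, 7 of 9 FACIT genes (fibril-associated collagens with interrupted triple helices), both multiplexins, 2 of 6 type VI (beaded filament) genes, and Col7a1, Col8a1, Col23a1 and Col26a1. Just inside the limit were Col19a1 and Col4a3, each with 3 libraries at 1 FPKM or more, and just outside it was Col8a2, with 2. The other 12 symbols had 0 or 1 such library, and 7 of the 13 not kept reached 1 FPKM in none.

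The cells were Nestin-EGFP positive cells, collected by fluorescence-activated sorting from C57BL/6 mice that carry enhanced green fluorescent protein under control of Nestin, a gene of neural stem and progenitor cells. All pregnant dams were dosed by mouth on embryonic days 12, 13 and 14, either with methylcellulose (control) or with valproic acid (VPA, an antiepileptic drug that inhibits histone deacetylases) at 300 mg/kg per day. Control and VPA offspring were compared as forebrain at embryonic day 15 (E15), as hippocampal dentate gyrus at postnatal day 5 (P5) and as dentate gyrus at 12 weeks. A seventh group had VPA before birth and voluntary running, and was sampled as dentate gyrus at 12 weeks. There was no running group without VPA. Each group had 3 libraries of polyadenylated RNA (n = 3 throughout). The sources used here do not say whether these came from separate animals or litters, so p-values measure only the spread between these libraries.

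Collagens are triple-helical proteins of the extracellular matrix. Fibrillar types such as I, II, III, V, XI, XXIV and XXVII form or nucleate banded fibrils, and FACIT types sit on the surface of fibrils. Type IV chains make the sheet-like network of basement membranes together with laminins, nidogens and perlecan, and multiplexins (types XV and XVIII) attach to those sheets. In the brain, type IV collagen lies mainly around blood vessels, under the pial surface and in thin extensions that reach neural stem cells, while fibrillar types I and III are best known from the meninges and perivascular fibroblasts.

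Promoter sequences of 4 genes are shown first, because these were among the 6 collagens whose level differed between VPA and control at P5. Sequences came from RefSeq (build GRCm38.p6), whose table held 35 of the 44 symbols and 24 of the 31 kept genes, in 27 windows that run from 250 bases before the start to 50 after it. The stretches below are on the plus strand and lie before the gene's start in RefSeq. Col3a1 is chr1:45311288-45311537, Col1a2 is chr6:4505370-4505492, a part that lies inside the longer GENCODE vM21 gene (4504814 to 4541544) but in none of its exons, and Col16a1 is chr4:130047590-130047816. For Col4a2, 30 bases are shown, chr8:11312761-11312790, which lie inside the first exon of Col4a1 on the other strand. Capitals mark matches to TATAAA (the TATA box), GGGCGG (a GC box) and CCAAT on the strand shown.
Col3a1: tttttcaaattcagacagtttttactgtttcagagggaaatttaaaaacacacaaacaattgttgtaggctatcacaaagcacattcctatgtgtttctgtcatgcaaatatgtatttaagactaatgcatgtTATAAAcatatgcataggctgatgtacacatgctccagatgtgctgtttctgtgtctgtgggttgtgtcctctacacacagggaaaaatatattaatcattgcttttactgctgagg
Col1a2: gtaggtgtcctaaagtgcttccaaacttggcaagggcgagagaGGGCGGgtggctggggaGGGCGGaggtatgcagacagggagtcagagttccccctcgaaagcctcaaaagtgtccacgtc
Col16a1: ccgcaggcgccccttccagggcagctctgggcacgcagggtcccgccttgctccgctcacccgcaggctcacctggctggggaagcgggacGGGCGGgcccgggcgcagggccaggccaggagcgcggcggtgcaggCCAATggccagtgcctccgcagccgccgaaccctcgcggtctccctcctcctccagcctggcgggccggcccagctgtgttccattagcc
Col4a2: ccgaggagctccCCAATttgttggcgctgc
The 4 stretches differed in make-up. Searched on both strands, TATAAA was found in 2 of the 27 windows of kept genes, those of Col3a1 and Col11a2. It was in 13.62% of all 32851 RefSeq windows of this length. GGGCGG was in 18 of the 27 windows (17 of the 24 genes) and in 35.66% of all windows. CCAAT was in 10 of the 27 windows (10 of the 24 genes) and in 37.41% of all windows. Each motif was counted on its own, so neighbouring matches may share bases, and a match says only that the letters are there. Col4a1 (chromosome 8, 11198423 to 11312826, minus strand) and Col4a2 (chromosome 8, 11312805 to 11449287, plus strand) are transcribed away from each other, with 5′ ends that overlap by 22 bases in GENCODE vM21. The sources used here do not say whether counting used strand. Reads in that overlap therefore could not be told apart, and the same holds for reads from the antisense gene annotated over the start of Col16a1. Col4a3 with Col4a4, and Col4a5 with Col4a6, are also arranged head to head, on chromosomes 1 and X, with no overlap of the annotated genes.

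Column sums of the FPKM tables were 465610 to 574594, and no read counts were used, so the depth of the libraries is unknown here. Between 16116 and 17601 symbols were above 0 in the E15 and P5 libraries and between 12019 and 15210 at 12 weeks. At 12 weeks 7 kept collagens in control, 9 in VPA and 14 in running VPA were listed at exactly 0 in at least 1 library, against 0 at P5, and for these no mean ± SD is given. All 8 markers of neural stem and progenitor cells (Nes, Sox2, Fabp7 and others) had a mean of at least 1 FPKM in each of the 7 groups. Markers of other cells were also present: the summed FPKM of 11 endothelial markers was 2.16 to 4.72 in E15 control, 6.73 to 10.8 in P5 control and 314 to 568 in 12-week control, and that of 11 pericyte markers was 25.1 to 25.9, 123 to 145 and 1111 to 2469. E15 VPA replicate 3 stood apart. Its 8 choroid plexus markers summed to 11220 FPKM, against 13.8 to 157 in the other E15 libraries. Its 12 fibroblast markers summed to 99.1, against 5.42 to 9.50, mostly from Igf2 (76.8) and Mgp (9.98). Dcn, Lum, Ogn and Islr were also above the other E15 libraries, at 1.43 to 3.46 FPKM. Foxc1 was below them, at 0.0544 FPKM. Slc6a13 and Slc22a6 were at 0 in all E15 libraries, and Aldh1a2 was at 0 in this library and at most 0.0351 FPKM in the others. Fewer cells of a type and less RNA per cell cannot be told apart in such bulk samples.

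Collagen RNA was low at E15 and higher at both later ages. The 44 genes summed to 48.4, 48.9 and 63.4 FPKM in the E15 control libraries, to 170, 174 and 179 in P5 control and to 157, 187 and 209 in 12-week control. Of the 31 kept genes, 2 had their highest control mean at E15, 11 at P5 and 18 at 12 weeks. Type IV genes made up 20.0% to 24.3% of the collagen sum in E15 control, 20.4% to 21.6% in P5 control and 20.6% to 33.2% in 12-week control. Only 7 genes were at 1 FPKM or more in all 21 libraries: Col11a1, Col11a2, Col5a2, Col4a1, Col4a2, Col9a3 and Col26a1.

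**Figure D1:**
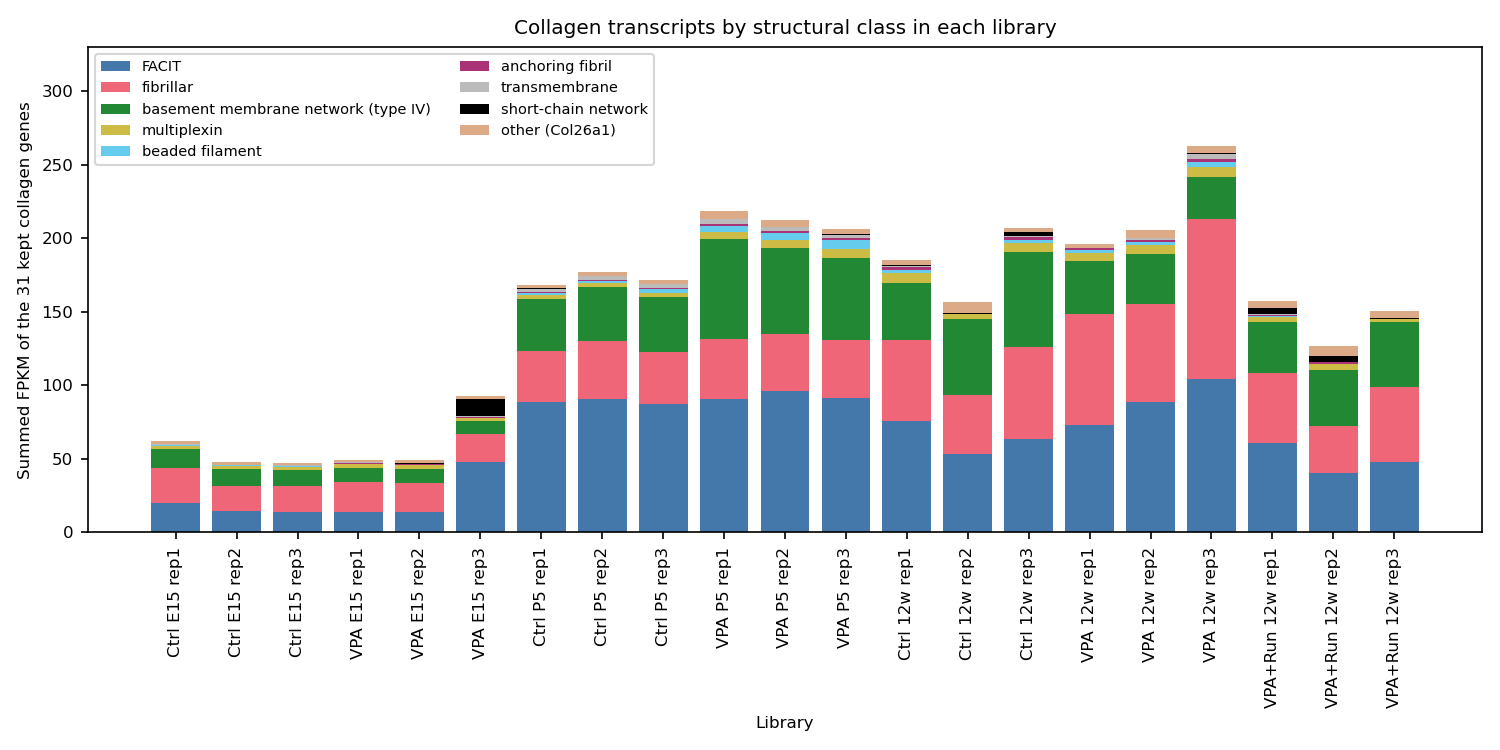
Summed FPKM of the 31 kept collagen genes in each of the 21 libraries (bars, linear axis from 0), split by structural class. The 3 E15 control libraries lie between 47.2 and 61.9, the P5 VPA libraries between 206 and 218, above P5 control at 168 to 177, and E15 VPA replicate 3 (92.9) stands above the other E15 libraries.

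Col9a3, which encodes a chain of the FACIT collagen IX, was the most abundant collagen by group mean in 6 of the 7 groups. It stood at 15.1, 11.5 and 10.1 FPKM in E15 control, at 51.3, 47.9 and 50.3 in P5 control and at 40.2, 31.6 and 34.5 in 12-week control. The 3 control groups did not overlap. Col9a2, a second chain of the same protein, stood at 1.40, 0.864 and 1.08 FPKM in E15 control, at 8.28, 9.72 and 10.7 in P5 control and at 13.4, 9.45 and 9.19 in 12-week control, so that P5 and 12 weeks overlapped. The remaining chain, Col9a1, was lower than both in every control library, at 0.317 to 0.475 FPKM at E15, 2.07 to 2.39 at P5 and 0.382, 2.85 and 0 at 12 weeks.

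Type IV collagen was led by Col4a1 and Col4a2, whose chains form the common trimer of basement membranes. Col4a1 stood at 6.44, 5.79 and 5.49 FPKM in E15 control, 18.9, 19.6 and 21.04 in P5 control and 22.7, 26.7 and 31.4 in 12-week control. Col4a2 stood at 4.37, 4.11 and 3.81, then 10.1, 10.7 and 11.2, then 11.4, 20.7 and 27.2 in the same groups. In both genes each age lay wholly above the one before. Col4a1 was above Col4a2 in 20 of 21 libraries, the exception being 1 running library in which their ratio was 0.981. Col4a5, of the other type IV networks, reached 3.99 to 5.15 FPKM in P5 control, while Col4a6 was at 0.930 to 1.22 and Col4a3 at 0.0204 to 0.0715.

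Among fibrillar collagens the highest means over all 21 libraries were those of the type XI chains, which nucleate thin fibrils, although Col2a1 and Col5a2 in E15 control and Col1a2 in 12-week control had means above at least 1 of them. Col11a1 stood at 7.15, 5.42 and 5.84 FPKM in E15 control, 13.0, 13.5 and 11.2 in P5 control and 9.20, 4.33 and 10.4 in 12-week control. Col11a2 stood at 2.88, 2.02 and 2.40, then 4.79, 5.35 and 4.87, then 21.6, 13.6 and 18.6. Col11a1 was thus the higher of the pair at E15 and P5, and Col11a2 at 12 weeks, in every control library. Of the type I chains, Col1a2 was above Col1a1 in 21 of 21 libraries, although the protein is mostly built of more alpha 1 than alpha 2 chains. Col1a1 reached only 0.448 to 0.911 FPKM in P5 control.

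**Figure D2:**
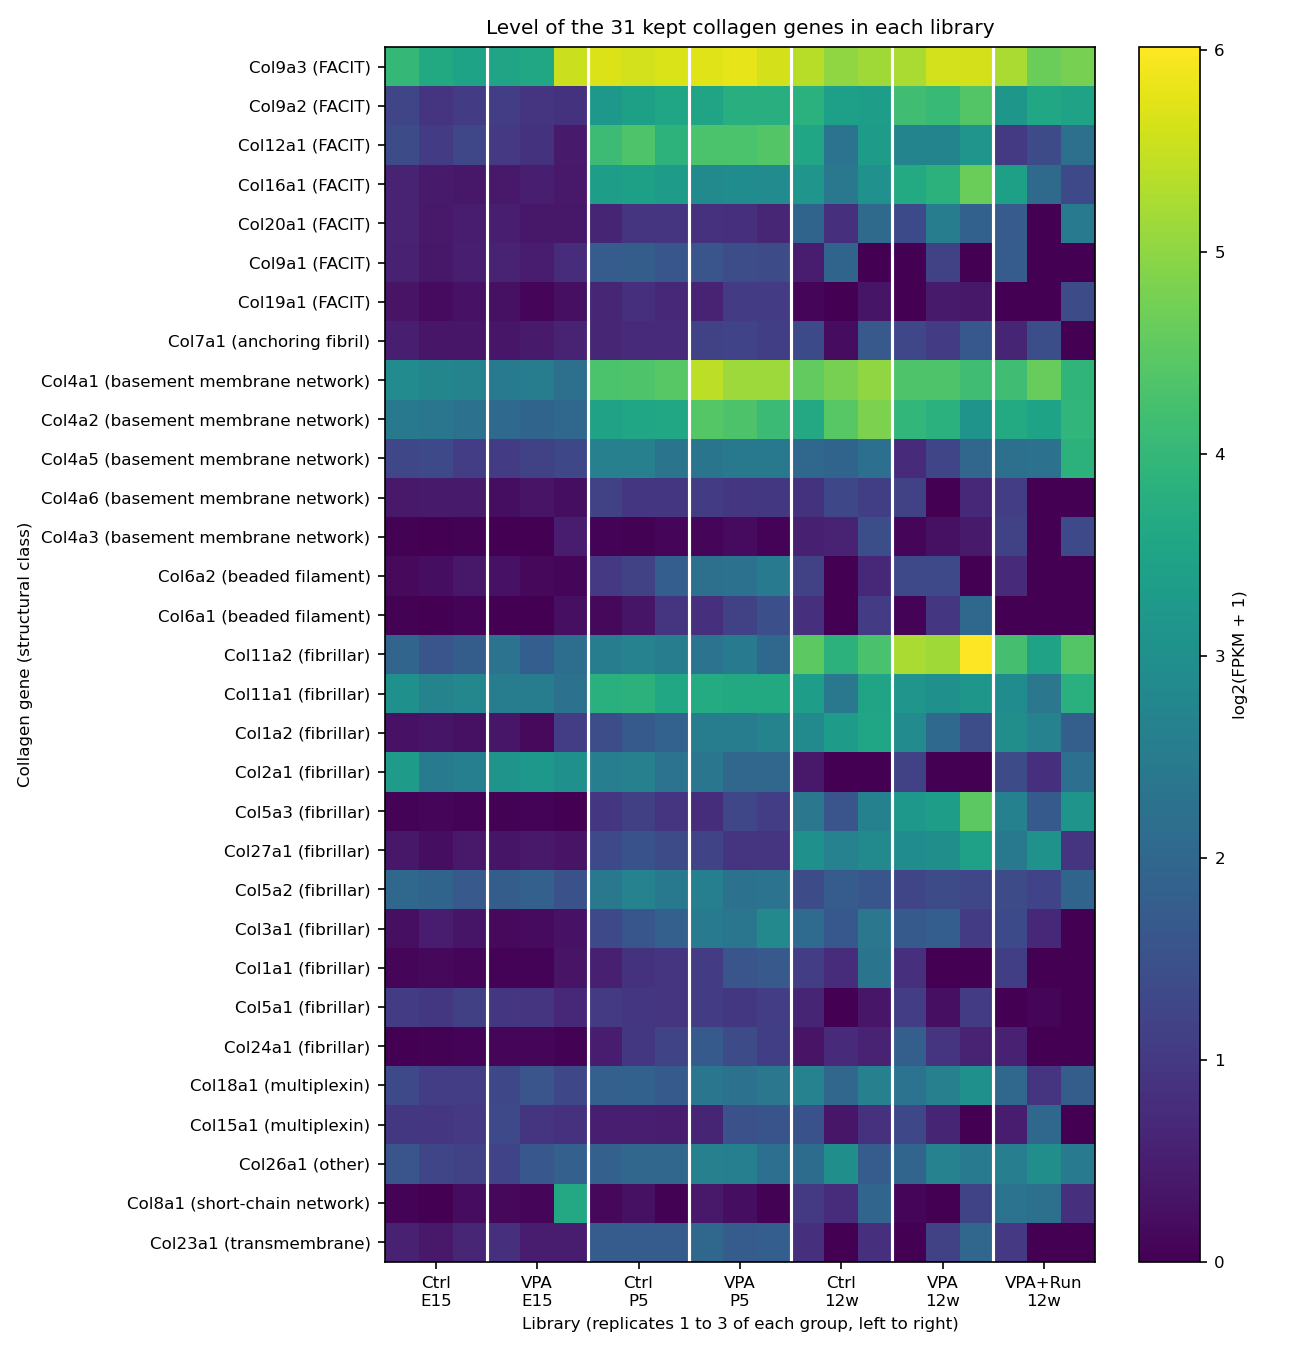
Colour gives log2(FPKM + 1) for each of the 31 kept collagen genes (rows, with structural class) in each of the 21 libraries (columns, 3 per group, groups parted by white lines). Col9a3 is bright in every group, the E15 columns are dark for most genes, and Col2a1 is bright at E15 and dark in 12-week control.

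Of the multiplexins, Col18a1 stood at 1.51, 1.14 and 1.12 FPKM in E15 control, 2.60, 2.63 and 2.28 in P5 control and 5.31, 2.94 and 5.14 in 12-week control, each age above the one before. Most genes of the remaining classes were lower. Col6a2 reached 0.116 to 0.308 FPKM in E15 control, 1.01 to 2.46 in P5 control and 1.25, 0 and 0.608 at 12 weeks. Col15a1 was at 0.945 to 1.004 FPKM, 0.389 to 0.424 and 0.287 to 1.85 in the same groups, Col7a1 at 0.280 to 0.413, 0.557 to 0.673 and 0.146 to 2.23, and Col8a1 at 0.0163 to 0.155, 0.023 to 0.209 and 0.710 to 2.90. Col23a1 was at 0.322 to 0.563, 2.37 in all 3 libraries and then 0.770, 0 and 0.792. Col6a2, Col15a1, Col7a1, Col8a1 and Col23a1 stayed near or under 1 FPKM in most libraries, while Col26a1 was above it throughout, at 1.27 to 1.99, 2.58 to 2.94 and 2.36 to 6.96.

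Between E15 and P5 control, 13 of the 31 collagens rose and 0 fell. Over all 14662 genes tested, 20.7% passed the same test (14.4% higher, 6.33% lower). In the same comparison 19 collagens had an unadjusted p under 0.05, against 30.4% of all genes, and the median difference was 0.14 on the log2(FPKM + 1) scale against 0.85 over the collagens. By p the first 8 were Col9a2, Col4a1, Col12a1, Col16a1, Col9a3, Col4a2, Col3a1 and Col1a2. The groups differ in brain region as well as age, and these cannot be told apart. Cell type markers moved too. Higher were 5 of 5 oligodendrocyte precursor, 6 of 11 pericyte, 5 of 8 neural stem and progenitor and 0 of 11 endothelial markers. Of 5 newborn neuron markers 1 was higher and 4 were lower. The part of these cells was not tested.

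The FACIT genes Col12a1 and Col16a1 had the largest of these rises. Col12a1, which binds fibrils of type I collagen, went from 1.65, 1.08 and 1.43 FPKM to 16.4, 19.4 and 13.7, a difference of 2.87 (SE 0.322, limma adjusted p = 3.25e-06) on the log2(FPKM + 1) scale. Col16a1 went from 0.519, 0.343 and 0.303 FPKM to 9.26, 9.69 and 8.87, a difference of 2.89 (SE 0.383, adjusted p = 2.01e-05). Every P5 library was above every E15 library in both genes. Col9a2 rose by 2.32 (SE 0.195) and Col9a3 by 1.96 (SE 0.358) on this scale.

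Col4a1 rose by 1.59 (SE 0.171, adjusted p = 1.81e-06) and Col4a2 by 1.20 (SE 0.259, adjusted p = 0.0024). The fibrillar genes were lower in level but rose too. Col3a1, of the elastic type III fibrils, was at 0.180, 0.402 and 0.277 FPKM in E15 control and at 1.51, 2.07 and 2.60 in P5 control, a difference of 1.24 (SE 0.312) on the log2 scale. Col1a2 was at 0.216, 0.259 and 0.198 FPKM and then at 1.68, 2.24 and 2.71, a difference of 1.38 (SE 0.359). Neither pair of groups overlapped. The other 5 that passed were Col4a5, Col23a1, Col11a1, Col11a2 and Col6a2, with differences from 0.81 to 1.28. With quantile normalization, which moves the median of all genes from 0.14 to -0.055, 7 rose and 2 fell (Col5a1 and Col15a1). Leaving out any 1 of the 6 libraries left 8 or 9 past the threshold.

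From P5 to 12 weeks the control collagens moved both ways, with 4 higher and 3 lower of 31, against 12.6% of all genes (7.26% higher, 5.35% lower). At an unadjusted p under 0.05 were 14, against 25.4% of all genes. The fit shares 1 estimate of spread over all ages, which may understate the spread at 12 weeks. Leaving out any 1 of the P5 libraries left 4 of the 7. Of these 7 genes, 6 were fibrillar. Col11a2 rose by 1.64 (SE 0.269, adjusted p = 0.000525) and Col1a2 by 1.57 (SE 0.359, adjusted p = 0.0072) on the log2(FPKM + 1) scale. Col1a2 stood at 6.26, 8.91 and 10.7 FPKM at 12 weeks.

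Col27a1, a fibrillar collagen best known from cartilage, was at 1.504, 1.84 and 1.60 FPKM in P5 control and 7.09, 5.36 and 6.24 at 12 weeks, a difference of 1.44 (SE 0.371, adjusted p = 0.0153). Col5a3, a minor fibrillar chain, was at 0.931, 1.20 and 0.881 FPKM and then 4.22, 2.02 and 5.29, a difference of 1.21 (SE 0.370, adjusted p = 0.0398). Both rose without overlap.

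Lower at 12 weeks were Col2a1, Col5a2 and Col12a1. Col2a1, the main collagen of cartilage and also found in early neuroepithelium, was at 8.93, 4.56 and 5.03 FPKM in E15 control and at 4.95, 5.16 and 3.91 in P5 control. At 12 weeks it was at 0.327 FPKM in 1 control library and listed at 0 in the other two (adjusted p = 0.000235). Col5a2 fell from 4.33, 5.39 and 4.39 FPKM to 1.64, 2.37 and 2.05, by 0.92 (SE 0.222, adjusted p = 0.0103) on the log2 scale. Col12a1 fell from 16.4, 19.4 and 13.7 FPKM to 10.7, 3.90 and 8.98, by 1.06 (SE 0.322, adjusted p = 0.0382). Markers of several cell types moved in the same comparison, where 7.26% of all genes rose and 5.35% fell. All 11 endothelial, all 11 pericyte and all 5 oligodendrocyte precursor markers rose, as did 7 of 11 fibroblast and 3 of 10 microglial markers. Lower were 3 of 5 erythroid, 2 of 8 neural stem and progenitor and 1 of 5 newborn neuron markers. The part of these cells in the collagen values was not tested.

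Genes that make, process and bind collagen changed with age as well, in some lists upward and in others both ways. From E15 to P5, where 14.4% of all genes rose, 8 of 13 tested basement membrane partners rose and 0 fell, among them Sparc, a collagen-binding glycoprotein, from 9.25 ± 1.48 (SD) to 54.1 ± 5.35 FPKM, and the laminin chain Lama2 from 0.667 ± 0.0652 to 8.04 ± 0.887. Of 19 synthesis and secretion genes 8 rose and 0 fell, including the lysyl hydroxylase Plod1, from 1.84 ± 0.194 to 14.3 ± 1.53 FPKM. Ppib, a prolyl isomerase and the most abundant of that list, rose from 232 ± 25.2 to 425 ± 16.9 FPKM. Of 8 collagen receptors 4 rose and 0 fell, and of 11 breakdown genes 4 rose and 0 fell. Of 9 processing and crosslinking genes 2 rose and 2 fell. Fibril-binding genes also moved both ways, with 2 higher and 2 lower of 10, where 6.33% of all genes fell. From P5 to 12 weeks, where 7.26% of all genes rose, 7 of 10 fibril-binding proteoglycans and glycoproteins rose and 1, Thbs1, fell. Aspn, encoding the small proteoglycan asporin, rose from 0.763 ± 0.288 to 26.6 ± 8.93 FPKM there. Of 13 basement membrane partners 6 rose and 1 fell, and of 8 collagen receptors 1 rose and 0 fell. Synthesis and secretion genes had 2 higher and 4 lower of 19, and breakdown genes 2 higher and 2 lower of 11. None of 9 processing and crosslinking genes passed. Over all genes 5.35% fell.

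At E15, the day after the last dose, no collagen passed the test between VPA and control. Of the 31 kept genes 12 reached the level needed for this fit, and 0 passed by limma, against 0.0405% of all 12345 genes tested. At an unadjusted p under 0.05 were 4 of the 12, Col4a2, Col4a1, Col11a1 and Col12a1, against 10.5% of all genes. In each of these 4 all VPA libraries were below all control libraries, which held for 9.32% of all genes. No collagen lay wholly above control, as 8.19% of all genes did.

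Col4a1 was at 4.60, 4.86 and 3.69 FPKM in E15 VPA, below the 5.49 to 6.44 of control, a difference of -0.36 (SE 0.118, adjusted p = 0.42) on the log2(FPKM + 1) scale. Col4a2 was at 3.16, 2.85 and 3.10 FPKM, below the 3.81 to 4.37 of control, a difference of -0.34 (SE 0.0975, adjusted p = 0.382). Col11a1 was at 4.83, 4.84 and 3.78 FPKM in VPA, a difference of -0.38 (SE 0.133, adjusted p = 0.44). These values lay apart from control in each library but did not pass after adjustment. Pericyte markers moved with them: 11 summed to 16.3 to 22.3 FPKM in E15 VPA and 25.1 to 25.9 in control. Of 10 tested, 8 were lower in sign and 0 passed by limma (0.0405% of all genes). Among these markers 5 lay wholly below control, against 9.32% of all genes. Their part was not tested.

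Col9a3 stood at 10.4, 11.03 and 45.3 FPKM in E15 VPA, so that its difference of 0.50 (95% interval -0.74 to 1.73) came from replicate 3, and without that library it was -0.16. The same library held Col8a1 at 11.4 FPKM, against 0.0163 to 0.155 in the other E15 libraries, and Col8a2 at 11.01 FPKM. Col8a1 and Col8a2 encode the short-chain collagen VIII, a component of sheet-like matrices such as that under the corneal endothelium. These are the values of the library whose choroid plexus markers stood apart. Without it the count of collagens past the threshold at E15 was also 0.

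At P5 collagens of basement membranes (Col4a1, Col4a2 and Col18a1) and of fibrils (Col1a2 and Col3a1) rose after prenatal VPA, and the FACIT gene Col16a1 fell. These were 6 of 24 collagens tested, 5 higher and 1 lower, by limma with Benjamini-Hochberg adjustment. Over all 13328 genes 2.24% passed, 0.90% higher and 1.34% lower. An unadjusted p under 0.05 was found for 14 of the 24, against 24.0% of all genes. In 9 of the 24 all VPA libraries lay above control and in 4 below, against 13.8% and 15.6% of all genes. The 44 collagens summed to 208 to 221 FPKM in the VPA libraries and 170 to 179 in control. Their median difference over the 24 tested was 0.17 on the log2(FPKM + 1) scale, and over all genes tested it was -0.0040. The other 7 kept genes stayed under 1 FPKM in more than 3 of the 6 libraries and were not tested.

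Col4a1 was at 41.8, 33.9 and 34.1 FPKM in P5 VPA against 18.9, 19.6 and 21.04 in control, means of 36.6 ± 4.51 (SD) and 19.8 ± 1.09. The difference was 0.85 (SE 0.0903, adjusted p = 0.0133) on the log2(FPKM + 1) scale. Col4a2 was at 20.7, 19.2 and 16.2 FPKM against 10.1, 10.7 and 11.2, a difference of 0.75 (SE 0.0943, adjusted p = 0.0195). Each VPA library was above each control library for both chains. Their ratio was 1.77 to 2.11 in VPA and 1.83 to 1.88 in control, so both chains moved by like amounts. The other type IV gene tested, Col4a5, was at 4.04, 4.36 and 4.44 FPKM in VPA and 5.10, 5.15 and 3.99 in control, with overlap and a difference of -0.12 (SE 0.106, adjusted p = 0.542).

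**Figure D3:**
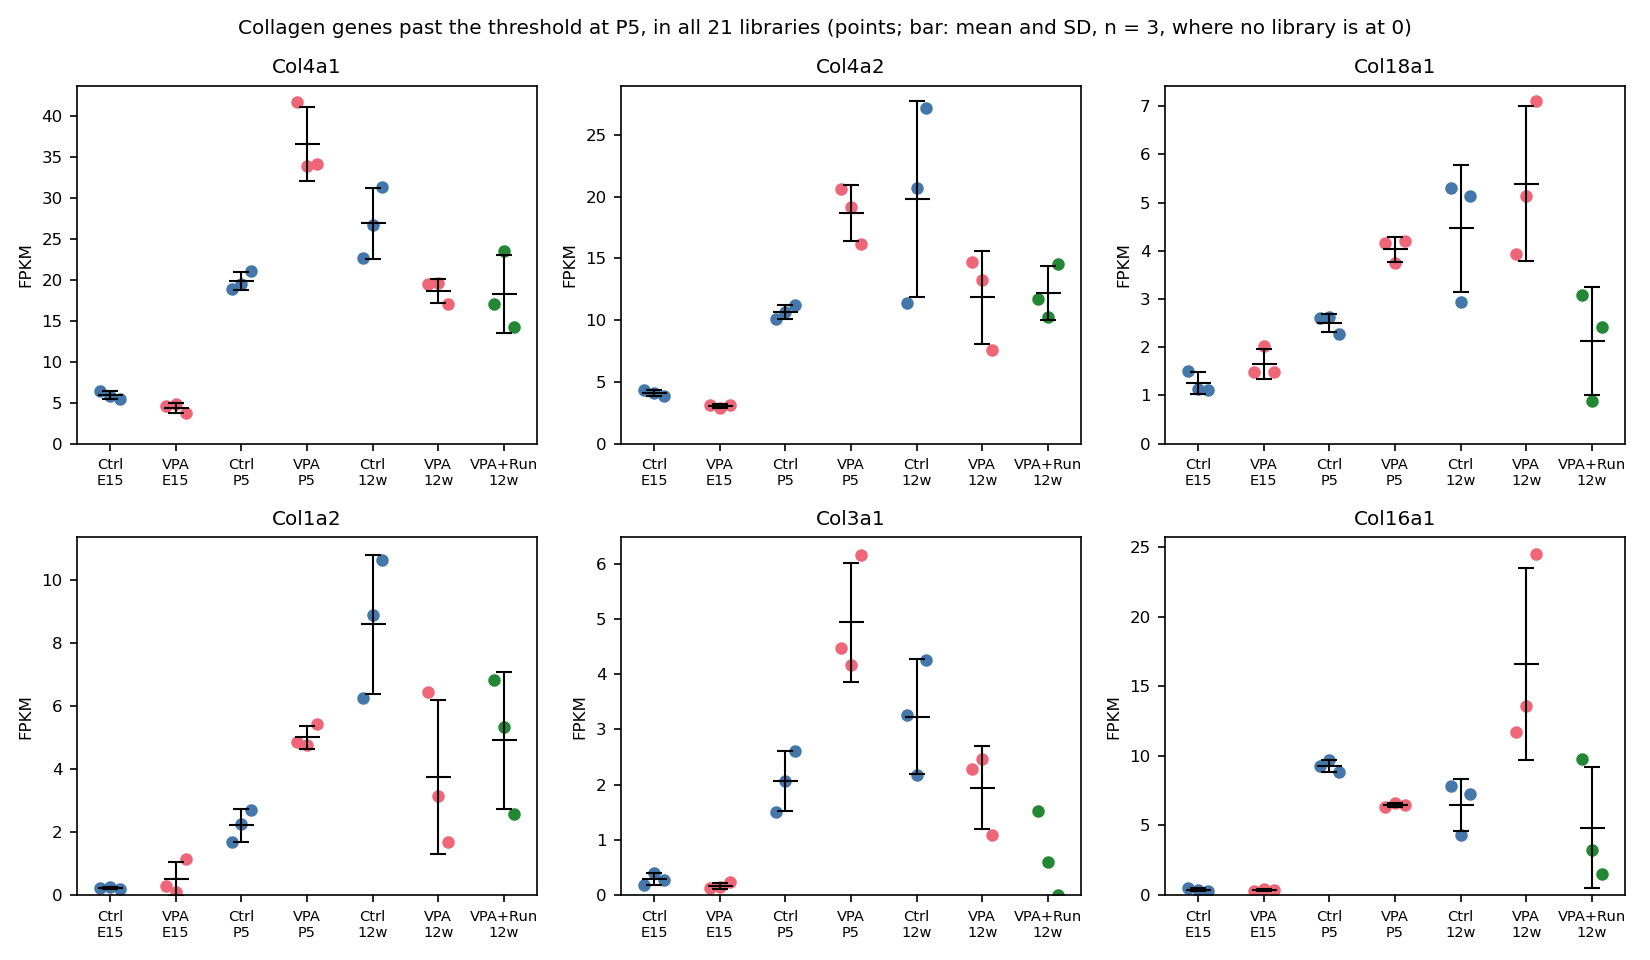
FPKM (linear axis from 0) of the 6 collagen genes past the threshold at P5, in all 21 libraries. Points are libraries (blue control, red VPA, green VPA with running), and bars are the mean and SD of 3 libraries, drawn where no library is at 0. At P5 the red points lie above the blue ones in 5 genes and below them in Col16a1, and at 12 weeks Col4a1 lies lower in VPA (16.995 to 19.6) than in control (22.7 to 31.4).

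Col18a1, a multiplexin whose C-terminal fragment is endostatin, was at 4.15, 3.74 and 4.21 FPKM in P5 VPA and 2.60, 2.63 and 2.28 in control, a difference of 0.52 (SE 0.0921, adjusted p = 0.0418). Groups did not overlap. Its relative Col15a1 stood at 0.552, 1.797 and 1.94 FPKM in VPA and 0.389 to 0.424 in control, also without overlap, but was too low to be tested.

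The fibrillar genes that rose were Col1a2 and Col3a1. Col1a2 was at 4.85, 4.75 and 5.43 FPKM in P5 VPA against 1.68, 2.24 and 2.71 in control, a difference of 0.92 (SE 0.133, adjusted p = 0.0293). Col3a1 was at 4.48, 4.17 and 6.17 FPKM against 1.51, 2.07 and 2.60, a difference of 0.96 (SE 0.175, adjusted p = 0.0452). Both were higher in 3 of 3 VPA libraries than in any control library. Col1a1, at 1.06, 2.003 and 2.19 FPKM against 0.448, 0.838 and 0.911, also did not overlap but did not pass (difference 0.65, adjusted p = 0.115).

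Nearest below the threshold was Col6a2, a chain of the beaded filaments of type VI, at 3.68, 3.79 and 4.51 FPKM in VPA and 1.01, 1.25 and 2.46 in control (difference 0.99, adjusted p = 0.0586). Its partner Col6a1 was at 0.794, 1.27 and 1.76 FPKM against 0.102, 0.257 and 0.886, with overlap and no test. Col7a1, of anchoring fibrils, was at 1.29, 1.29 and 1.15 FPKM against 0.557, 0.641 and 0.673 (difference 0.47, adjusted p = 0.071). Col26a1 was at 5.16, 5.04 and 3.59 FPKM against 2.58, 2.94 and 2.93 (difference 0.54, adjusted p = 0.0775). Apart from Col6a1 these groups did not overlap.

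Col16a1 was the collagen that fell at P5. It was at 6.34, 6.61 and 6.46 FPKM in VPA and 9.26, 9.69 and 8.87 in control, a difference of -0.46 (SE 0.067, adjusted p = 0.0296) with every VPA library below every control library. Col9a1 also lay below control in every VPA library, at 2.02, 1.68 and 1.61 FPKM against 2.38, 2.39 and 2.07, without passing (adjusted p = 0.216). The more abundant FACIT genes overlapped with control. Col9a3 was at 51.8, 54.1 and 48.6 FPKM in VPA against 47.9 to 51.3, a difference of 0.047 (95% interval -0.085 to 0.18), and Col9a2 was at 10.5, 12.9 and 12.6 FPKM against 8.28 to 10.7. Col12a1 was at 18.7, 18.8 and 20.3 FPKM against 13.7 to 19.4 (adjusted p = 0.289). Col11a1, at 12.0, 11.5 and 11.5 FPKM against 11.2 to 13.5, also overlapped with control, and Col11a2, at 3.86, 4.51 and 3.02 against 4.79 to 5.35, lay below it without passing (adjusted p = 0.168). Col23a1, a transmembrane collagen, stood at 3.08, 2.36 and 2.50 FPKM against 2.37 in all 3 control libraries, and Col8a1 at 0.027 to 0.329 FPKM against 0.023 to 0.209.

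**Figure D4:**
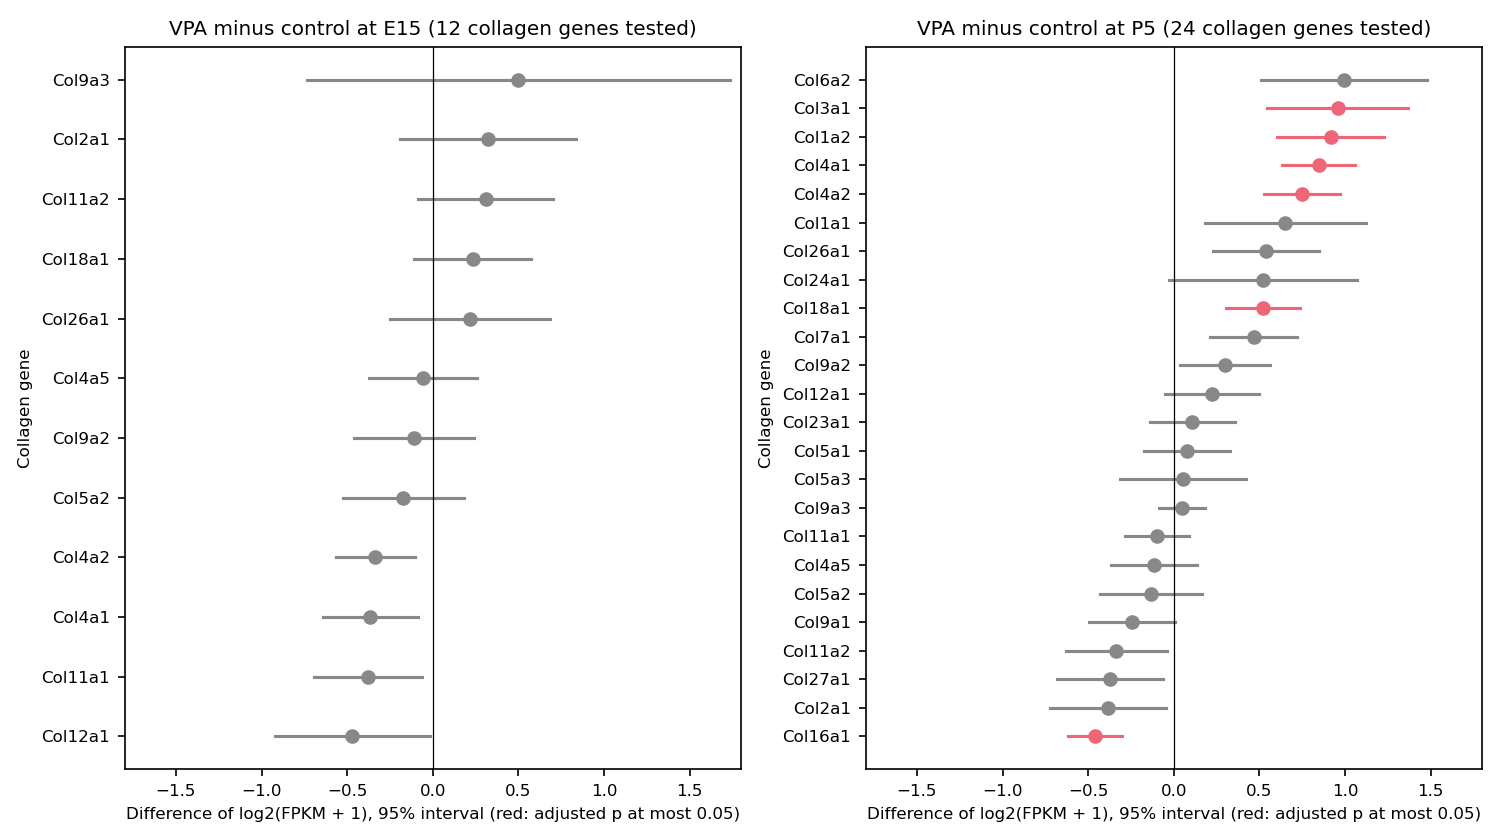
Difference of log2(FPKM + 1) between VPA and control for each collagen gene tested at E15 (12 genes, left) and P5 (24 genes, right), with 95% intervals from limma. Red marks an adjusted p of at most 0.05. Col4a1 and Col4a2 lie below 0 at E15 (-0.36 and -0.34) and above it at P5 (0.85 and 0.75).

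Genes that work with collagen also moved at P5 after VPA, where 0.90% of all genes rose and 1.34% fell. Of 12 tested basement membrane partners 2 rose and 0 fell. Lamc3, a laminin gamma chain, was at 1.91, 2.03 and 1.85 FPKM in VPA against 0.710, 0.638 and 0.807 (difference 0.77, adjusted p = 0.0251), and Lamb1, a laminin beta chain, at 26.9, 31.5 and 30.0 against 22.0, 21.2 and 22.2 (difference 0.41, adjusted p = 0.0365). Neither overlapped with control. Agrn, the proteoglycan agrin and the most abundant of this list, was at 117, 123 and 117 FPKM against 125, 128 and 113.

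Among 7 processing and crosslinking genes tested, Pcolce, which enhances removal of the fibrillar C-propeptide, rose from 2.50 ± 0.288 to 5.13 ± 0.759 FPKM (adjusted p = 0.0341), and the lysyl oxidase relative Loxl1 fell from 7.91 ± 0.638 to 5.14 ± 0.444 (adjusted p = 0.0395). Pxdn, the peroxidase that crosslinks type IV collagen and the most abundant of this list, overlapped between groups, at 53.9 to 55.4 FPKM in VPA and 53.1 to 58.8 in control. Of 8 fibril-binding genes 1 rose, Bgn (biglycan), from 16.3 ± 2.33 to 28.3 ± 2.70 FPKM (adjusted p = 0.0313), and 1 fell, Thbs1 (thrombospondin), from 2.82 ± 0.300 to 0.912 ± 0.0795 (adjusted p = 0.0134).

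Of 18 synthesis and secretion genes 0 rose and 1 fell, Sec24d, a coat component needed to export procollagen from the endoplasmic reticulum, from 6.65 ± 0.933 to 3.08 ± 0.249 FPKM (adjusted p = 0.0195). Ppib was at 448, 469 and 453 FPKM in VPA and 440, 407 and 427 in control. Among 11 breakdown genes Timp2, an inhibitor of matrix metalloproteinases, rose from 50.9 ± 3.43 to 70.9 ± 4.68 FPKM (adjusted p = 0.0325) and 0 fell. None of the 7 collagen receptors tested passed by limma. The most abundant, Adgrg1, which binds type III collagen, was at 151 to 179 FPKM in VPA and 156 to 183 in control.

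Markers of vessel-associated cells were higher in the same libraries. Over all genes tested at P5, 0.90% passed higher and 1.34% lower, and 13.8% lay wholly above and 15.6% wholly below control. The 11 pericyte markers summed to 346, 270 and 185 FPKM in P5 VPA replicates 1 to 3, against 123 to 145 in control, with 11 of 11 higher in mean and 4 past the threshold (Vtn, Mcam, Pdgfrb and Cd248). The 12 fibroblast markers summed to 50.8 to 66.7 FPKM against 25.5 to 33.4, with 3 of 7 tested past the threshold (Igf2, Foxc1 and Islr), and the 11 endothelial markers to 15.7 to 20.4 against 6.73 to 10.8, with 0 of 3 past it by limma. Microglial markers summed to 32.4 to 47.3 FPKM against 19.1 to 27.3, and erythroid markers to 125 to 579 against 1092 to 1452. Of the neural stem and progenitor markers, which mark the sorted cells, 8 of 8 were lower in sign after VPA, 5 lay wholly below control and 1 fell (Sox2), with a median difference of -0.31 on the log2(FPKM + 1) scale. No pericyte, endothelial or fibroblast marker was at 0 in all libraries of either P5 group. The part of these cells in the collagen differences was not tested.

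The calls at P5 depended on the libraries and the fit used. Leaving out control replicate 1 or control replicate 2 left 0 of the 6, leaving out VPA replicate 2 left 1 and VPA replicate 3 left 2, and the fit of all 21 libraries called 0 (0.102% of all genes), while the direction of all 6 was the same in each setting. With replicate number as a block, 1 remained (Col4a1, adjusted p = 0.0481). The share of all genes passing with a library left out is not given here. Whether collagens lost more calls than other genes cannot be read from these counts.

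At 12 weeks no collagen passed the test between VPA and control. Of 26 tested, 0 passed by limma, as for 0% of all 13847 genes, and 4 had an unadjusted p under 0.05 (Col11a2, Col5a3 and Col9a2 higher, Col1a2 lower), against 6.39% of all genes. In 4 genes all VPA libraries were above control (Col11a2, Col5a3, Col9a2 and Col16a1) and in 2 below (Col4a1 and Col4a3), against 7.83% and 7.63% of all genes.

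Col11a2 was at 37.3, 34.7 and 63.7 FPKM in 12-week VPA against 21.6, 13.6 and 18.6 in control, a difference of 1.26 (SE 0.335, adjusted p = 0.557) on the log2(FPKM + 1) scale. Its VPA mean of 45.2 ± 16.0 FPKM was the highest of any collagen in that group, next to Col9a3 at 44.4 ± 6.38, from which it did not differ beyond the spread. Col5a3 was at 8.24, 9.29 and 21.8 FPKM against 4.22, 2.02 and 5.29, and Col16a1 at 11.7, 13.6 and 24.5 against 7.81, 4.34 and 7.24. VPA replicate 3 was the highest in all 3 of these genes.

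Col9a2 was at 16.97, 15.5 and 20.1 FPKM in 12-week VPA against 13.4, 9.45 and 9.19, and Col9a3 at 37.0, 47.5 and 48.5 against 40.2, 31.6 and 34.5, the latter with overlap. Type IV chains and Col1a2 had lower means in VPA. Col4a1 was at 19.5, 19.6 and 16.995 FPKM against 22.7, 26.7 and 31.4, a difference of -0.49 (95% interval -1.06 to 0.070, adjusted p = 0.785), Col4a2 at 14.7, 13.3 and 7.59 against 11.4, 20.7 and 27.2, and Col1a2 at 6.45, 3.13 and 1.68 against 6.26, 8.91 and 10.7. All 5 type IV genes had a lower mean of log2 values in VPA than in control.

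Running VPA differed from sedentary VPA in no collagen by the test. Of the genes tested, 0 of 26 collagens passed by limma, as for 0% of all genes. At an unadjusted p under 0.05 were 8 (Col11a2, Col16a1, Col12a1, Col9a2, Col9a3, Col18a1 and Col5a3 lower, Col4a5 higher), against 11.3% of all genes, and 6 lay wholly below sedentary VPA and 1 above, against 8.48% and 6.98%. This comparison and the one above share the sedentary VPA libraries.

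Col11a2 was at 18.0, 10.04 and 20.1 FPKM after running, below all sedentary VPA libraries (34.7 to 63.7), a difference of -1.44 (SE 0.335, adjusted p = 0.165). Col16a1 was at 9.76, 3.23 and 1.52 FPKM, a difference of -1.79 (SE 0.545, adjusted p = 0.271), and Col9a2 at 8.11, 11.3 and 10.1, a difference of -0.78 (SE 0.292, adjusted p = 0.356). All running libraries were below all sedentary VPA libraries in these genes. Col12a1 was at 1.02, 1.65 and 3.62 FPKM after running, below 5.53 to 7.79 in sedentary VPA and 3.90 to 10.7 in control. Col4a5 was at 3.69, 3.78 and 13.6 FPKM against 0.657 to 2.95, with replicate 3 far above the other two.

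Col4a1 was at 17.03, 23.6 and 14.3 FPKM after running and Col4a2 at 11.7, 10.3 and 14.6, both overlapping with sedentary VPA. Col18a1 was at 3.07, 0.890 and 2.43 FPKM, below 3.93 to 7.11 in sedentary VPA. Col3a1 was at 1.53 and 0.590 FPKM in running replicates 1 and 2 and listed at 0 in replicate 3, and Col6a1 was listed at 0 in all 3 running libraries. Against control, 0 of 26 collagens passed by limma, as for 0% of all genes, and 3 had an unadjusted p under 0.05 (Col12a1 and Col3a1 lower, Col2a1 higher), against 7.76% of all genes. In 2 genes the running libraries lay wholly above control (Col2a1 and Col4a5) and in 2 below (Col12a1 and Col3a1), against 5.83% and 7.24% of all genes.

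**Figure D5:**
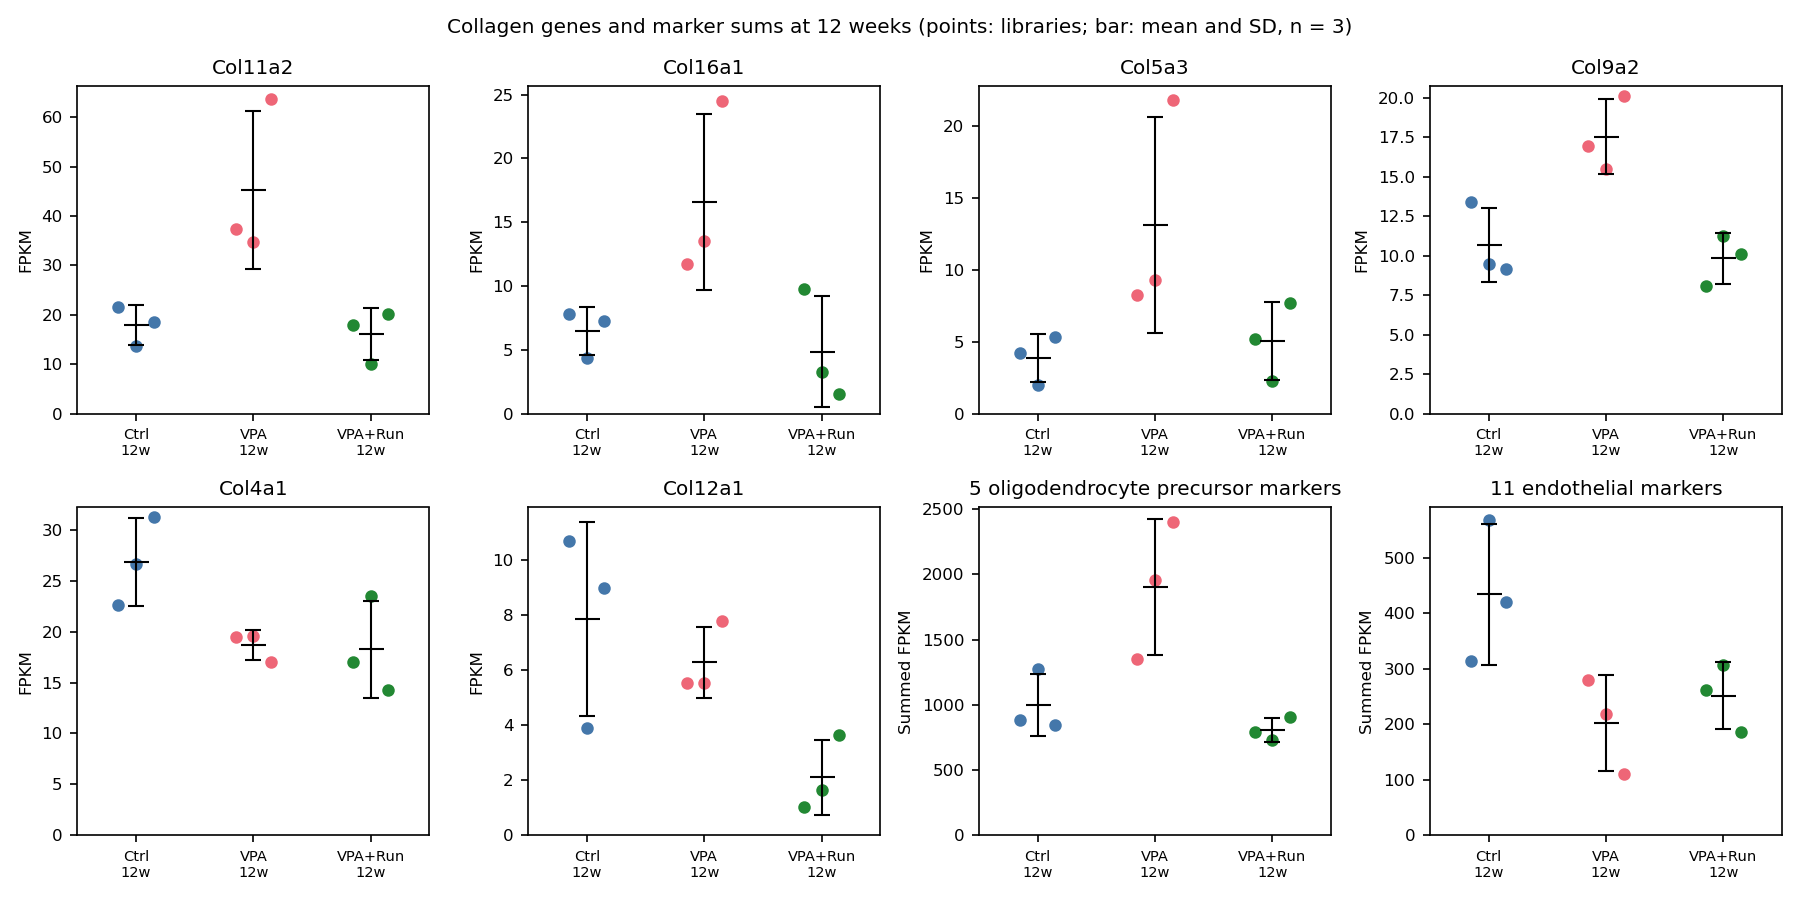
FPKM of 6 collagen genes and summed FPKM of 5 oligodendrocyte precursor and 11 endothelial markers in the 12-week groups (linear axes from 0). Points are libraries, bars the mean and SD of 3. Col11a2, Col16a1, Col5a3, Col9a2 and the oligodendrocyte precursor markers are highest in VPA, while Col4a1 and the endothelial markers are highest in control.

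Markers of other cells moved with these collagens at 12 weeks. The 5 oligodendrocyte precursor markers (Pdgfra, Cspg4, Olig1, Olig2 and Sox10) summed to 843 to 1274 FPKM in control, 1354 to 2399 in VPA and 726 to 906 in running VPA, and VPA replicate 3 was the highest of all 9 libraries. The 11 endothelial markers summed to 314 to 568 FPKM in control, 109 to 280 in VPA and 187 to 307 in running VPA, and the 11 pericyte markers to 1111 to 2469, 787 to 1141 and 672 to 1566. The 12 fibroblast markers summed to 104 to 271 FPKM in control, 86.6 to 193 in VPA and 135 to 282 in running VPA. For VPA against control all 11 fibroblast, 11 endothelial and 11 pericyte markers tested were lower in sign. Of these, 4, 7 and 2 lay wholly below control, against 7.63% of all genes. All 5 oligodendrocyte precursor markers were higher in sign, and 2 lay wholly above control, against 7.83% of all genes. After running these 5 lay wholly below sedentary VPA, against 8.48% of all genes. In these lists 0 passed by limma in either comparison, as for 0% of all genes. The part of these cells in the collagen values was not tested. In a fit of all 21 libraries, which shares 1 estimate of spread over all ages, 2 collagens passed for VPA against control (Col11a2 and Col5a3), 8 for running against sedentary VPA and 3 for running VPA against control. In that fit 3.64%, 11.6% and 6.04% of all 14662 genes passed in these comparisons.

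The VPA effect on Col4a1 differed between P5 and 12 weeks. The effect at an age was taken as the VPA minus control difference, and its change between ages was tested in all 21 libraries. That fit shares 1 estimate of spread over all ages, although libraries of a group were less alike at 12 weeks. Their lowest correlation was 0.934 in control and 0.931 in VPA at 12 weeks, and 0.976 in both groups at P5. The SEs below may therefore understate the spread at 12 weeks. From P5 to 12 weeks 1 of 31 collagens passed, with a lower effect at 12 weeks, against 0.389% of all 14662 genes (0.252% higher, 0.136% lower). At an unadjusted p under 0.05 were 8 of the 31, against 10.5% of all genes. It was Col4a1, at -1.34 (SE 0.242, adjusted p = 0.022), with P5 means of 36.6 ± 4.51 FPKM in VPA and 19.8 ± 1.09 in control and 12-week means of 18.7 ± 1.47 and 26.9 ± 4.35. Col4a2 had a change of like size, -1.41 (SE 0.366, adjusted p = 0.119), without passing. The partner gene Bgn also passed with a lower effect at 12 weeks (adjusted p = 0.0269).

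The Col4a1 result depended on single libraries. With replicate number as a block its adjusted p was 0.166, and leaving out any 1 of the 6 P5 libraries, 12-week control replicate 3 or 12-week VPA replicate 3 gave adjusted p-values of 0.0518 to 0.0926, with the size between -1.39 and -1.23. From E15 to P5, 0 of 31 collagens passed by limma, against 0.0955% of all genes (0.0136% higher, 0.0818% lower), and 3 had an unadjusted p under 0.05 (Col4a1, Col4a2 and Col3a1), against 1.93% of all genes. Col4a1 had a change of 1.21 (SE 0.242, adjusted p = 0.0987). The count of 0 from E15 to P5 depended on the fit, since 3 collagens passed in the fit of only the groups compared. Over all settings the limma adjusted p of Col4a1 ran from 0.00611 to 0.549, and it passed in 2 of them. From E15 to 12 weeks, 0 of 31 passed by limma, against 0.0818% of all genes (0.0546% higher, 0.0273% lower), and 6 had an unadjusted p under 0.05, against 8.75%.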

How the data were processed

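Nestin-EGFP positive cells were sorted, and polyadenylated RNA was isolated with magnetic beads and sequenced, per the labels' protocols. TopHat, Bowtie2, Cufflinks, Cuffdiff and the mm10 build are named in the submitters' processing notes, without versions. The authors deposited 1 FPKM value per gene symbol and library. The deposited 12-week tables name FPKM in their headers, while the E15 and P5 headers name only the sample, so FPKM was inferred there from the same symbols, range and column sums. All 21 libraries were used, grouped by their labels, and 0 sample columns were left out.

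Values were tested as log2(FPKM + 1), which understates the change of low genes, with limma 3.58.1 (intensity trend) in R 4.3.3. Genes were kept in a fit if 3 or more of its libraries reached 1 FPKM. VPA and control were fitted with 6 libraries at E15 and P5 and with 9 at 12 weeks. Ages and changes of the VPA effect were fitted over 21, with 1 estimate of spread for all ages. Benjamini-Hochberg adjustment covered all genes tested in each of 10 comparisons, with a threshold of 0.05. The scripts were tested on simulated data. Intervals are at 95%.

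Per-library values were given for members past the threshold (the 8 with the smallest p where there were more). For the 2 most abundant of each class, values or ranges were given for most control groups and at P5, and only in part elsewhere. Up to 4 called genes and the most abundant gene of each partner list were named for VPA against control at P5, and only some for the ages. Genes named for an unadjusted p, for groups that did not overlap or as relatives of these were chosen after their values were seen. The members and lists were chosen with earlier results of these data known. Same-numbered E15 libraries deviated together (correlations of 0.126, 0.115 and 0.228 over 12345 genes), which pairs them by the data and not by the labels. The E15 differences, SEs and p-values above came from the fit without this pairing. With replicate number as a block the collagen count at E15 was also 0. Alternatives were another pseudocount (0.1), the filter dropped or raised to 5 FPKM, scaling by median of ratios or quantiles, removal of 1284 small RNA genes, no trend, a replicate block, other sets of libraries in a fit and leaving out each library.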

Additional observations from a re-analysis of the deposited data

Results flagged for a closer look

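4 results differed between ages in the test of the VPA effect at 12 weeks minus that at P5, on the log2(FPKM + 1) scale. They were 1 of 31 collagens, 1 of 10 fibril-binding genes and 2 of 11 pericyte markers, against 0.389% of all 14662 genes. The VPA effect on Col4a1 was 1.34 lower at 12 weeks (difference of -1.34, limma adjusted p = 0.022). With replicate number as a block its adjusted p was 0.166, and Col4a1 did not pass when any 1 P5 library was left out. For Bgn (biglycan) the difference was -1.998 (adjusted p = 0.0269), with P5 means of 28.3 FPKM in VPA and 16.3 in control and 12-week means of 33.1 and 85.4. For the pericyte marker Vtn it was -2.31 (adjusted p = 0.0305), with P5 means of 50.3 and 19.3 FPKM and 12-week means of 543 and 1120. For the pericyte marker Abcc9 it was -1.99 (adjusted p = 0.0306), with 12-week means of 17.4 FPKM in VPA and 34.5 in control. Bgn, Vtn and Abcc9 were not followed through the alternative settings.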

How the results depend on the processing

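For single collagens, 2098 alternative values kept their direction and side of the threshold, 106 no longer passed and 21 newly passed. Another 56 changed sign without passing in either fit, and none that had passed changed sign. Of 24 collagens tested at P5, 6 passed, which became 1 without a filter, 3 with the filter at 5 FPKM, 0 in the fit of all 21 libraries and 0 to 6 when 1 library was left out. With the replicate block 1 passed at P5. The numbers do not pair the P5 libraries by the rule used (correlations of 0.0943, 0.0441 and 0.0132). In the fit of all 21 libraries the counts at 12 weeks went from 0 to 2 (VPA against control), 8 (running against sedentary VPA) and 3 (running VPA against control). For the control ages, leaving out 1 library gave 8 to 9 in place of 13 from E15 to P5 and 4 to 8 in place of 7 from P5 to 12 weeks. For the change of the VPA effect from E15 to P5, the count went from 0 to 1 without a filter and to 3 in the fit of only the groups compared. For its change from P5 to 12 weeks, the count went from 1 to 2 with quantile normalization, to 0 with the replicate block and to 0 to 4 when 1 library was left out. Apart from the fits with fewer libraries or other sets of genes, the cause was not tested. The block changed no other count by over 1.5 times. Counts with 1 library left out are given without the share of all genes, so they do not set collagens apart from other genes. Depth was not known, and values under 1 FPKM, and the exact zeros at 12 weeks, limit what can be said of low collagens.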
